A study of Mus musculus with 4 samples.

Results

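The genes described here are 6 costimulatory receptors of the tumour necrosis factor (TNF) receptor family: Tnfrsf4 (the receptor OX40), Tnfrsf8 (CD30), Tnfrsf9 (CD137), Tnfrsf18 (GITR), Tnfrsf1b (TNF receptor 2) and Cd27. They were chosen by name as members of this family, with no threshold on a measured value, but with earlier results of these data known. They make up 6 of the 16338 gene rows in each library and 6 of the 16102 genes tested (mean over the libraries of 1 normalized count or more). Expression was measured by RNA sequencing in 4 libraries of mouse T cells, 1 for each combination of 2 T cell receptors, named TRP1high and TRP1low, and 2 peptides, named K8 and M9. The T cells of all groups had spent 48 h with B cells that carried the peptide, and were then sorted away from those B cells. The name TRP1 stands for tyrosinase-related protein 1, an enzyme of melanin synthesis and a melanoma antigen. For the mice, their strain, age and number and the way the T cell receptors were introduced were not given in the sources used here. Where 4 values follow each other, they are in the order TRP1high K8, TRP1high M9, TRP1low K8, TRP1low M9. Each group held 1 library, so no difference between 2 libraries has a replicate check, and none is tested.

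TNF receptor family costimulators are membrane proteins that bind trimeric ligands of the TNF family on neighbouring cells and recruit TRAF adaptor proteins to their cytoplasmic tails. The TRAF complexes pass the signal to NF-kB transcription factors and to kinases that promote survival, division and cytokine production of the T cell. Cd27 and Tnfrsf1b are present on resting T cells in some measure, whereas Tnfrsf4, Tnfrsf8 and Tnfrsf9 are known as receptors that appear after T cell receptor triggering, and Tnfrsf18 is also abundant on regulatory T cells.

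Of the 6 genes, 5 lie on mouse chromosome 4 and 1 on chromosome 6 (build mm10, positions from the GENCODE M21 annotation). Tnfrsf8 (chr4:145267137-145315164, minus strand) and Tnfrsf1b (chr4:145213463-145246870, minus strand) are neighbours separated by 20266 bases. Tnfrsf4 (chr4:156013843-156016612, plus strand) and Tnfrsf18 (chr4:156026164-156028895, plus strand) are separated by 9551 bases. Tnfrsf9 (chr4:150914562-150946102, plus strand) lies between these pairs, and Cd27 (chr6:125232622-125237010, minus strand) is the only 1 of the 6 on chromosome 6. The bases just before the start site are shown for 3 of the genes, since the neighbours Tnfrsf8 and Tnfrsf1b differed widely in their response to the peptide and Tnfrsf9 differed from both in direction. The sequences are from RefSeq (GRCm38.p6, which is mm10) and are written 5′ to 3′ on the strand of the gene, with capitals for matches to TGANTCA, a form of the AP-1 motif, and to a loose form of the NF-kB motif (GGG, any 5 bases, CC).
Tnfrsf8 (chr4:145315165-145315414, minus strand): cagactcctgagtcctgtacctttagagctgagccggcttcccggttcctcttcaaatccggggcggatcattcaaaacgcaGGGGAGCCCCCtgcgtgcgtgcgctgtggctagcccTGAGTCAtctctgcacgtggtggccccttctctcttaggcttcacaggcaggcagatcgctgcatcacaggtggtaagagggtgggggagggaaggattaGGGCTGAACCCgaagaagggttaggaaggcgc
Tnfrsf1b (chr4:145246871-145247120, minus strand): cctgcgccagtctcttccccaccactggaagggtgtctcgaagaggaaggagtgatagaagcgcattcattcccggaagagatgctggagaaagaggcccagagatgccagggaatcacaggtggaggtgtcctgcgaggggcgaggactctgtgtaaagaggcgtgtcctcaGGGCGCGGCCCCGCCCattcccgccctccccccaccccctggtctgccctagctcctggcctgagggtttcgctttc
Tnfrsf9 (chr4:150919905-150920154, plus strand): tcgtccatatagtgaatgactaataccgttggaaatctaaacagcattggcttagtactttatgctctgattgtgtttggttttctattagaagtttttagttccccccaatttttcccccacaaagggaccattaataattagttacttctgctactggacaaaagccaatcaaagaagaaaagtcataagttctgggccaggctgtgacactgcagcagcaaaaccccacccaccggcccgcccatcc
Both strands were searched and overlapping matches were merged into 1 place. The windows shown are 1 each for Tnfrsf8 and Tnfrsf1b and the outer of 2 for Tnfrsf9. The Tnfrsf8 window held 1 match to TGANTCA and the NF-kB form in 2 places, the Tnfrsf1b window held the latter in 1 place, and the outer Tnfrsf9 window held neither. The inner Tnfrsf9 window, which is not shown, held 1 match to TGANTCA and the NF-kB form in 1 place. The Cd27 window held the NF-kB form in 1 place, and the windows of Tnfrsf4 and Tnfrsf18 held neither of these 2 motifs. The letters GGAAA, a core of the NFAT motif, were also searched and are not in capitals. They lay in 1 place for Tnfrsf4, 1 for Cd27, 2 for Tnfrsf18, and 0 for Tnfrsf8 and Tnfrsf1b. The outer Tnfrsf9 window held them in 2 places and the inner in 3. Among 32851 RefSeq windows of the same length, 6.75% held TGANTCA, 45.8% held the NF-kB form and 55.6% held GGAAA. The RefSeq start of Tnfrsf9 used here lies inside the span of the gene in GENCODE. These matches describe the letters only, and binding was not measured. All 6 genes had a window, 7 in all. The windows of Tnfrsf4 and Tnfrsf18 and the inner one of Tnfrsf9 overlap annotated exons and are not shown.

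The deposited values are log2(normalized count + 1), and levels below are on that scale unless named otherwise. Dividing by the worth of 1 read gave between 29.6 and 41.5 M estimated reads per library, with the lowest total in TRP1low with K8. Ratios carry a 95% exact interval on these estimated reads, which covers counting error only and leaves out the spread between cultures. A gene is called higher or lower here when it differed by 2-fold or more and either library of the pair reached 10 normalized counts. In bulk samples such as these, fewer cells of a type and less RNA per cell cannot be told apart.

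Tnfrsf4, which binds Tnfsf4 (OX40 ligand) and supports survival of activated T cells, was higher with M9 than with K8 in both T cell receptors. Its levels were 11.83 in TRP1high with K8, 14.07 in TRP1high with M9, 9.91 in TRP1low with K8 and 12.76 in TRP1low with M9. Both M9 libraries thus lay above both K8 libraries, and with each peptide the TRP1high library lay above the TRP1low library. From the lowest to the highest library the level spanned 4.15 on the log2 scale, or 17.8-fold. Among 10528 genes that reached 100 normalized counts in some library, 236 (2.24%) spanned as much. In log2, M9 minus K8 was 2.24 in TRP1high and 2.85 in TRP1low, and TRP1high minus TRP1low was 1.92 with K8 and 1.31 with M9. The receptor ratio was 3.78 with K8 (interval 3.48 to 4.10) and 2.48 with M9 (2.41 to 2.55), so the T cell receptors stood closer together with M9. Ranked by the difference with M9 from the highest, Tnfrsf4 was at place 65 of 10182 genes in TRP1high and at place 57 of 10243 in TRP1low.

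Tnfrsf8, which binds Tnfsf8 (CD30 ligand) and is found on activated lymphocytes, went the opposite way. Its levels were 10.30 in TRP1high with K8, 5.26 in TRP1high with M9, 8.83 in TRP1low with K8 and 5.76 in TRP1low with M9. The M9 levels rest on 38 and 51 estimated reads, against 1259 and 333 with K8. Both K8 libraries were high and both M9 libraries were low, and the T cell receptors differed 2.76-fold with K8 (interval 2.44 to 3.12, TRP1high higher). With M9 the ratio of TRP1high to TRP1low was 0.704, and its interval of 0.449 to 1.09 includes 1, so a difference was not detectable at this depth. Tnfrsf8 was lower with M9 by a factor of 33.6 in TRP1high (interval 24.2 to 47.5) and of 8.57 in TRP1low (6.33 to 11.7). The intervals do not overlap, but they cover counting error only and leave out the spread between cultures. Ranked from the lowest difference, it was at place 14 of 10182 genes in TRP1high and at place 58 of 10243 in TRP1low. Of all 6 genes it had the widest span over the 4 libraries, 5.03 on the log2 scale, which 153 of the 10528 genes (1.45%) reached or passed.

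Tnfrsf9, which binds Tnfsf9 and is used as a mark of recently triggered CD8 T cells, was at 12.56 in TRP1high with K8, 14.19 in TRP1high with M9, 12.39 in TRP1low with K8 and 13.00 in TRP1low with M9. The TRP1high library with M9 stood above the other 3, which lay within 0.61 of each other. M9 against K8 was 3.08-fold in TRP1high (interval 2.99 to 3.17) and 1.53-fold in TRP1low (1.47 to 1.59). The T cell receptors were close with K8, at a ratio of 1.13 (1.09 to 1.18), and apart with M9, at 2.28 (2.22 to 2.34). Its place from the highest difference with M9 was 135 of 10182 in TRP1high and 1160 of 10243 in TRP1low.

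Tnfrsf18, the receptor for GITR ligand, was at 12.66 in TRP1high with K8, 13.58 in TRP1high with M9, 11.78 in TRP1low with K8 and 13.27 in TRP1low with M9. The low library was TRP1low with K8, and the M9 libraries lay above both K8 libraries. M9 against K8 was 1.901-fold in TRP1high (interval 1.84 to 1.96), just under the threshold, and 2.80-fold in TRP1low (2.68 to 2.93). TRP1high exceeded TRP1low 1.83-fold with K8 and 1.24-fold with M9. Tnfrsf9 and Tnfrsf18 both spanned 1.80 on the log2 scale, but the library that stood apart was the highest for Tnfrsf9 and the lowest for Tnfrsf18.

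Tnfrsf1b, a receptor for TNF and lymphotoxin alpha that lacks a death domain, was at 11.78 in TRP1high with K8, 11.17 in TRP1high with M9, 11.87 in TRP1low with K8 and 11.14 in TRP1low with M9. It was lower with M9 by 1.53-fold in TRP1high (interval 1.45 to 1.61) and by 1.66-fold in TRP1low (1.57 to 1.76), under the threshold in both. The ratio of TRP1high to TRP1low was 0.941 with K8 (0.895 to 0.990) and 1.02 with M9 (0.961 to 1.08), so with M9 the interval includes 1.

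Cd27, which binds Cd70 and supports the survival of primed T cells, was at 11.65 in TRP1high with K8, 11.76 in TRP1high with M9, 12.05 in TRP1low with K8 and 11.72 in TRP1low with M9. It had the narrowest span of the 6 genes, 0.40 on the log2 scale, below the median of 0.64 over the 10528 genes. M9 against K8 was 1.08-fold in TRP1high (interval 1.03 to 1.13), while in TRP1low Cd27 was lower with M9 by 1.26-fold (1.198 to 1.32). TRP1high against TRP1low gave a ratio of 0.757 with K8 (0.720 to 0.795) and of 1.02 with M9 (0.977 to 1.08).

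**Figure D1:**
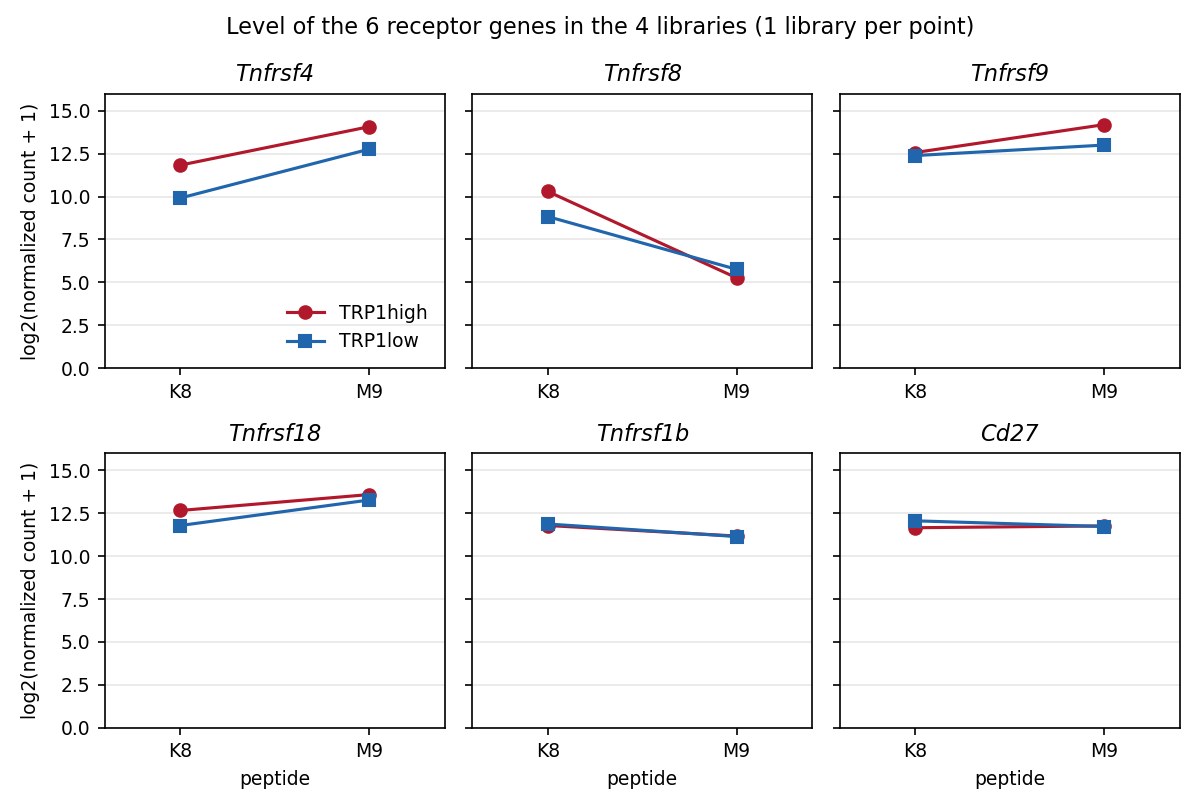
Level of each of the 6 receptors, as log2(normalized count + 1), in the 4 libraries, with 1 point per library and no error bar because each group holds 1 library. Tnfrsf4 ran from 9.91 to 14.07 and Tnfrsf8 from 5.26 to 10.30, while Cd27 stayed between 11.65 and 12.05.

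With M9 against K8, 3 of the 6 genes were called in TRP1high, where 9.87% of all tested genes were: Tnfrsf4 and Tnfrsf9 were higher, as were 5.14% of all genes, and Tnfrsf8 was lower, as were 4.73%. In TRP1low 3 of 6 were called, against 15.1% of all genes, with Tnfrsf4 and Tnfrsf18 higher (7.67% of all genes) and Tnfrsf8 lower (7.43%). Tnfrsf4 was the member called higher in both T cell receptors, as were 1.58% of all genes, and Tnfrsf8 the member called lower in both, as were 1.57%. The median difference over the 6 genes was 0.52 in TRP1high and 0.14 in TRP1low, beside -0.02 and 0.02 over all tested genes. The comparisons of both T cell receptors use separate libraries.

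TRP1high against TRP1low gave 2 of 6 genes called with K8, both higher in TRP1high (Tnfrsf4 and Tnfrsf8), where 18.9% of all genes were called, 10.6% higher and 8.35% lower. With M9 it also gave 2 of 6, both higher in TRP1high (Tnfrsf4 and Tnfrsf9), against 12.9% of all genes, 7.37% higher and 5.58% lower. Tnfrsf4 was the member called with both peptides, as were 3.24% of all genes in that direction, and no member was called lower with both, as were 2.29%. The medians over the 6 genes were 0.53 with K8 and 0.18 with M9, beside -0.00 and -0.03 over all genes. The difference between the peptide differences (TRP1high minus TRP1low) passed 2-fold for Tnfrsf9, at 1.01, and for Tnfrsf8, at -1.96, which is 2 of 6 genes against 18.7% of all, 9.07% higher and 9.68% lower. It was -0.61 for Tnfrsf4, -0.56 for Tnfrsf18, 0.12 for Tnfrsf1b and 0.44 for Cd27. It uses each library once, so it has no test.

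**Figure D2:**
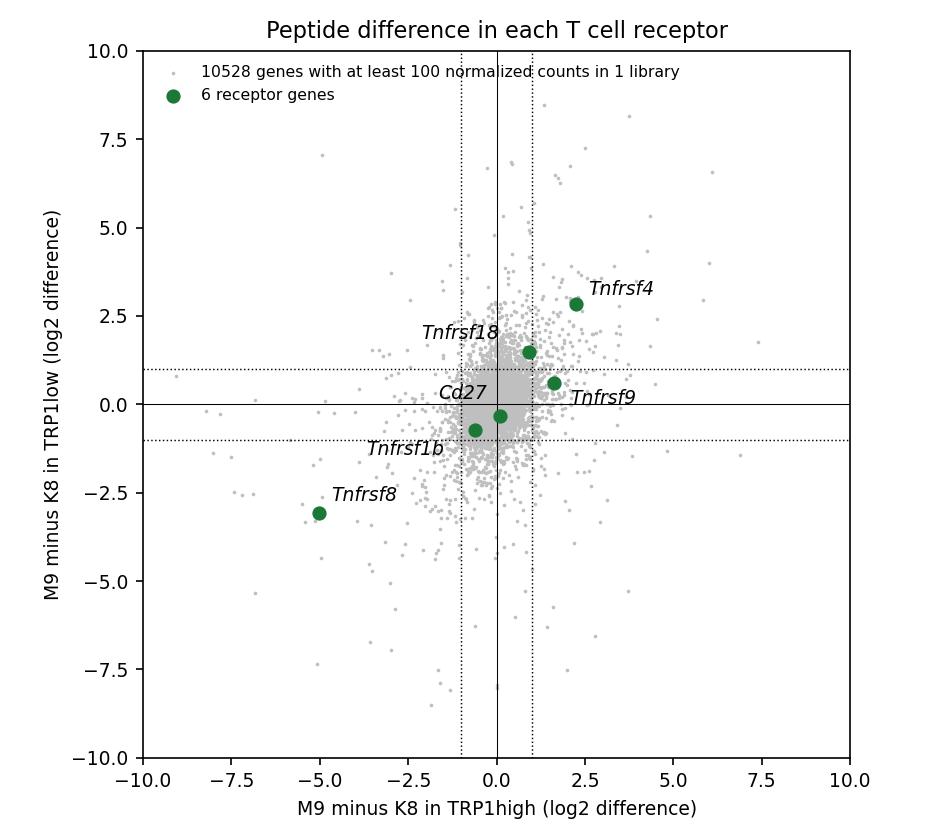
Difference of each receptor between M9 and K8 in log2 for TRP1high and TRP1low, with dotted lines at 2-fold. Tnfrsf4 lies above 2-fold in both (2.24 and 2.85) and Tnfrsf8 below it in both (-5.03 and -3.07).

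The 6 genes differ in transcript length, so their levels were set against each other as normalized counts per kilobase of the longest annotated transcript. The share of each gene in the sum over the 6 was then compared between libraries. Tnfrsf4 made up 23.2% of the sum in TRP1high with K8, 43.1% in TRP1high with M9, 9.10% in TRP1low with K8 and 31.0% in TRP1low with M9. It was the most abundant of the 6 per kilobase in TRP1high with M9, and Tnfrsf18 was in the other 3 libraries, at 35.8% (TRP1high, K8), 28.8% (TRP1low, K8) and 38.3% (TRP1low, M9). Tnfrsf18 was 26.7% in TRP1high with M9, and Tnfrsf9 held between 17.8% and 24.6% in all 4 libraries. The share of Cd27 was 13.6% with K8 and 5.75% with M9 in TRP1high, and 26.6% with K8 and 10.01% with M9 in TRP1low. The share of Cd27 was thus lower with M9 in both T cell receptors, while its own level lay within 0.40 in log2 and the sum over the 6 genes was larger with M9.

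Tnfrsf1b had a share of 6.08% and 9.55% with K8 and of 1.56% and 2.73% with M9, in TRP1high and TRP1low. Tnfrsf8 was the least abundant of the 6 in every library, at 2.43% and 1.30% with K8 and 0.0284% and 0.0719% with M9. The ratio of Tnfrsf4 to Tnfrsf8 per kilobase was 9.58 and 7.01 with K8 and 1520 and 432 with M9. Between the neighbours on chromosome 4, the ratio of Tnfrsf4 to Tnfrsf18 was 0.650, 1.61, 0.316 and 0.810. Summed without division by length, the 6 genes took 5.97 and 13.1 of every 10000 normalized counts in the TRP1high libraries (K8, M9), and 4.51 and 7.24 in those of TRP1low. The sum was thus higher with M9 in both T cell receptors, and lowest in TRP1low with K8.

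**Figure D3:**
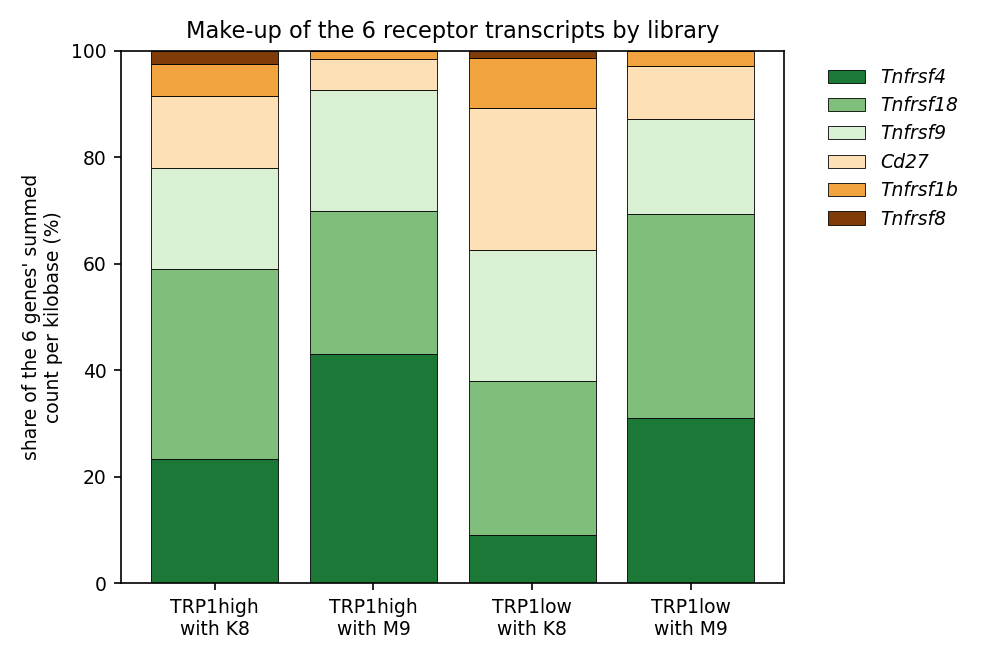
Share (percent) of each receptor in the sum of the 6 genes, from normalized counts per kilobase, in each of the 4 libraries. Tnfrsf4 took 43.1% in TRP1high with M9 and 9.10% in TRP1low with K8, and Tnfrsf8 is hardly visible with M9.

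An additive limma model of T cell receptor and peptide was fitted to all 16102 genes, and its residual is the disagreement of the pairs, with 1 degree of freedom, not a spread between cultures. Over both T cell receptors the peptide term of Tnfrsf4 was 2.54 (SE 0.27), with an unadjusted p of 0.0060 and a Benjamini-Hochberg adjusted p of 0.58 in limma. For Tnfrsf8 the limma estimate was -4.05 (SE 0.66), adjusted p = 0.58, and for Tnfrsf18 it was 1.21 (SE 0.26), adjusted p = 0.58. The other 3 were 1.12 for Tnfrsf9, -0.67 for Tnfrsf1b and -0.11 for Cd27, with limma adjusted p-values from 0.60 to 0.89. No member and no other gene passed an adjusted p of 0.05 (0% of genes tested). At an unadjusted p under 0.05, 3 of 6 members passed in limma, beside 8.33% of all genes.

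For the T cell receptor term over both peptides, Tnfrsf4 was higher in TRP1high by 1.61 (SE 0.27), with a limma adjusted p of 0.38. Again no member and no other gene passed after adjustment. At an unadjusted p under 0.05, 1 of 6 members (Tnfrsf4) passed, beside 12.7% of all genes. When the prior variance was allowed to follow the mean level, Tnfrsf4 passed for both terms, with limma adjusted p-values of 0.0411 for the peptide and 0.0298 for the T cell receptor. It was 1 of 6 members called for each term in that fit, beside 0.0311% of all genes for the peptide and 1.61% for the T cell receptor.

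The ligands of the family are made by antigen-presenting cells and by activated T cells, and 14 of the 17 listed have rows here. Tnfsf18, the ligand of Tnfrsf18, was not analysed here, nor were Tnfsf12 and Tnfsf13. In TRP1high, 4 of the 14 were called higher with M9 and 1 lower, and in TRP1low 2 higher and 3 lower. Of all tested genes, 5.14% were called higher and 4.73% lower in TRP1high, and 7.67% and 7.43% in TRP1low. Fasl, the death ligand of activated T cells, was higher in both (1.86 and 3.54 in log2), and Tnfsf10, which encodes TRAIL, was lower in both (-1.51 and -1.58). The median difference of the ligands was 0.49 in TRP1high and -0.31 in TRP1low. TRP1high against TRP1low gave 2 higher and 4 lower with K8, and 1 higher and 0 lower with M9. The shares of all genes were 10.6% higher and 8.35% lower with K8, and 7.37% and 5.58% with M9.

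Tnfsf4, the ligand of Tnfrsf4, was at 7.63 and 8.11 in TRP1high with K8 and M9, and at 10.25 and 7.58 in TRP1low with K8 and M9. Its high library, TRP1low with K8, is the one in which Tnfrsf4 was lowest. In TRP1low Tnfsf4 was thus lower with M9 by 6.39-fold (interval 5.44 to 7.54), where Tnfrsf4 was higher by 7.19-fold. Tnfsf8, the ligand of Tnfrsf8, was at 10.26 and 10.76 in TRP1high and at 9.81 and 9.24 in TRP1low, with K8 and M9 in that order, and did not pass 2-fold with M9 in either T cell receptor. Per kilobase, Tnfrsf8 stood close to its ligand in TRP1high with K8, at 8.53 beside 8.33 in log2, and far below it with M9, at 3.58 beside 8.83.

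Tnfsf9, the ligand of Tnfrsf9, was at 5.39 and 6.69 in TRP1high and at 6.25 and 6.48 in TRP1low, with K8 and M9, and the difference of 1.30 in TRP1high passed 2-fold. Cd70, the ligand of Cd27, was scarce, with 1 and 11 estimated reads in TRP1high and 31 and 7 in TRP1low. Its ratio of M9 to K8 in TRP1high was 10.9, with a counting interval of 1.59 to 469. Of the ligands of Tnfrsf1b, Tnf was at 8.63, 8.11, 9.03 and 8.83. Lta, which encodes lymphotoxin alpha, was at 12.98, 12.33, 10.96 and 13.25 in the same order. TRP1low with K8 held the least Lta and the other 3 libraries lay within 0.92 of each other.

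**Figure D4:**
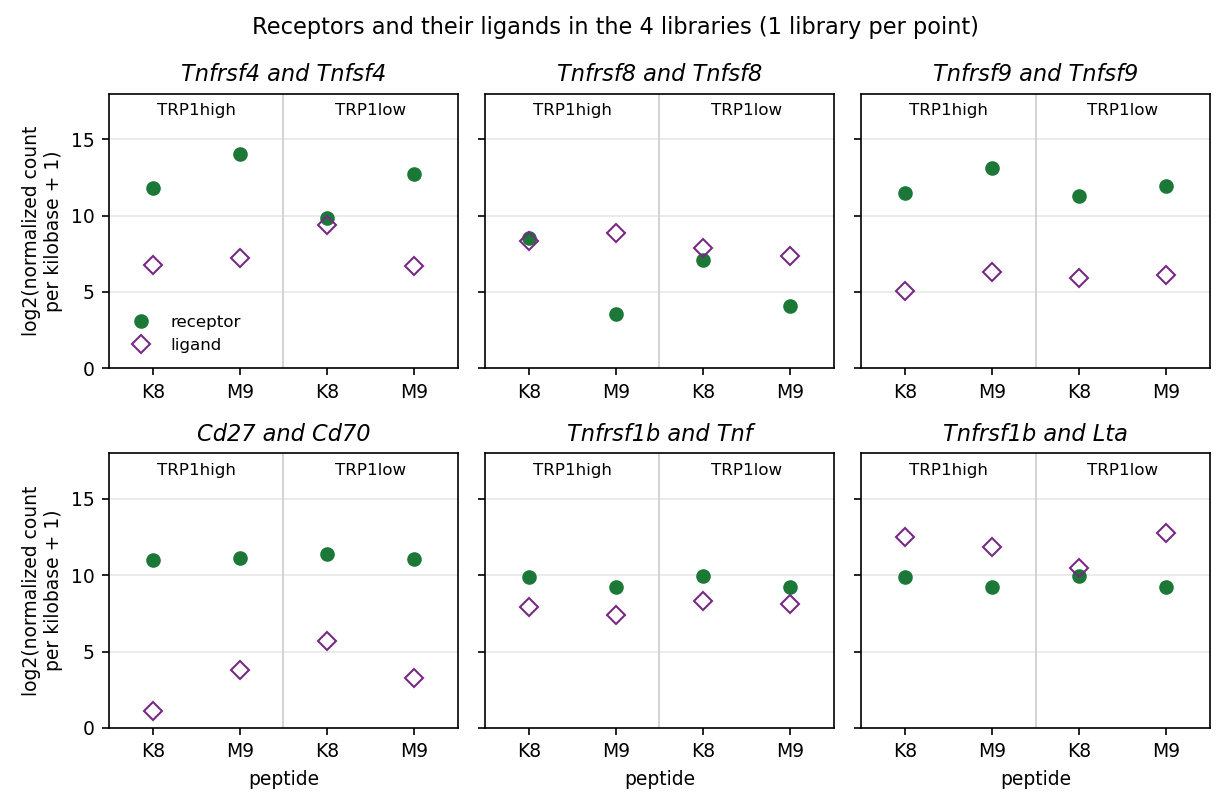
Receptors (filled points) and their ligands (open diamonds) in the 4 libraries, as log2(normalized count per kilobase + 1), with 1 library per point. Tnfsf4 was highest in TRP1low with K8, where Tnfrsf4 was lowest, and Tnfrsf8 lay below Tnfsf8 with M9 in both T cell receptors.

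Of 22 TRAF adaptors and regulators close to the receptors, 1 was called higher with M9 in TRP1high, where 9.87% of all genes were called. In TRP1low 1 was called lower, beside 15.1% of all genes, with both shares counting either direction. The higher one was Birc3 (1.02 in log2), a ubiquitin ligase bound by TRAF proteins, and the lower one was Tnfaip3 (-1.45), the NF-kB feedback inhibitor A20. Traf1, an adaptor used by several of the 6 receptors, was at 10.75 and 11.45 in TRP1high and at 12.15 and 11.18 in TRP1low, with K8 and M9. Traf2 lay between 10.10 and 10.31 in all 4 libraries, Traf3 between 9.75 and 10.48, and Traf5 between 7.86 and 8.69, so none of these 3 reached 2-fold. TRP1high against TRP1low gave 1 higher and 2 lower with K8 (18.9% of all genes called), and 1 higher and 0 lower with M9 (12.9%). The higher one with both peptides was Map3k14 (1.68 and 1.55), the NF-kB-inducing kinase that TRAF complexes hold in check. The median difference of the 22 with M9 was -0.02 in TRP1high and -0.17 in TRP1low.

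Of 14 NF-kB subunits, inhibitors and kinases, M9 in TRP1high gave 1 higher and 1 lower (9.87% of all genes in either direction). In TRP1low it gave 0 higher and 2 lower (15.1% of all genes). Rel, the subunit c-Rel, was higher in TRP1high (1.28 in log2, beside 0.02 in TRP1low). Bcl3, a nuclear partner of NF-kB, was lower in both T cell receptors (-1.04 and -2.19), and the inhibitor Nfkbie was lower in TRP1low (-1.17). The medians with M9 were 0.28 and -0.19. TRP1high against TRP1low gave 1 higher (Nfkb1, 1.31) and 1 lower with K8, where 18.9% of all genes were called. With M9 it gave 0 in either direction, beside 12.9% of all genes.

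Costimulators of the immunoglobulin and scavenger receptor families were set beside the 6 genes, and 10 of 12 listed have rows. TRP1high had 2 higher with M9 and 0 lower, and TRP1low had 3 higher and 1 lower, with medians of 0.38 and 0.85. The shares of all genes called were 9.87% and 15.1%. Cd5, a scavenger receptor that dampens T cell receptor signals, was higher in both (1.58 and 1.62 in log2), as was Slamf1 (1.08 and 2.04), a homophilic receptor. TRP1high against TRP1low with K8 gave 5 higher, among them Icos (1.86), and 2 lower, and with M9 it gave 1 higher and 0 lower. This comparison called 18.9% of all genes with K8 and 12.9% with M9.

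Of the other TNF receptor family genes, 19 of 23 listed have rows. TRP1high had 1 higher with M9 and 4 lower, and TRP1low had 2 higher and 6 lower, with medians of -0.26 and -0.38. The shares of all genes were 5.14% higher and 4.73% lower in TRP1high, and 7.67% and 7.43% in TRP1low. Tnfrsf13c, the BAFF receptor, was higher in both (1.08 and 1.70 in log2), while Tnfrsf26 (-1.98 and -1.91) and Tnfrsf23 (-1.50 and -1.9997), a decoy receptor for TRAIL, were lower in both. Many of these genes rest on few reads: Cd40 had 7, 1, 17 and 1 estimated reads and Ltbr had 55, 3, 0 and 6, in the order given above. TRP1high against TRP1low gave 3 higher and 3 lower with K8 (18.9% of all genes called), and 1 higher and 2 lower with M9 (12.9%).

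Genes within 60 kb of the members were compared with them. Sdf4, which ends 232 bases before Tnfrsf4 on the same strand, differed with M9 by 0.997 in TRP1high and 0.566 in TRP1low in log2, less than Tnfrsf4 in both. Further away, C1qtnf12 differed by 1.15 and 0.93, B3galt6 by 0.05 and 0.29, and Ube2j2 by -0.18 and -0.18. Tnfrsf18, 9551 bases past Tnfrsf4, differed by 0.93 and 1.49. At the other pair, Tnfrsf8 differed by -5.03 and -3.07, Tnfrsf1b by -0.61 and -0.73, and Vps13d, on the far side of Tnfrsf1b, by -0.37 and 0.44. Park7, which starts 124 bases from Tnfrsf9 on the opposite strand, differed by 0.03 and 0.30. Camta1 overlaps Tnfrsf9 on the opposite strand and Vamp1 overlaps Cd27. A strand setting of the counting was not given in the sources used here, so reads in the shared bases cannot be assigned with certainty. Camta1 was at 8.45 to 8.76 and Vamp1 at 7.36 to 7.67, below Tnfrsf9 and Cd27 in every library.

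**Figure D5:**
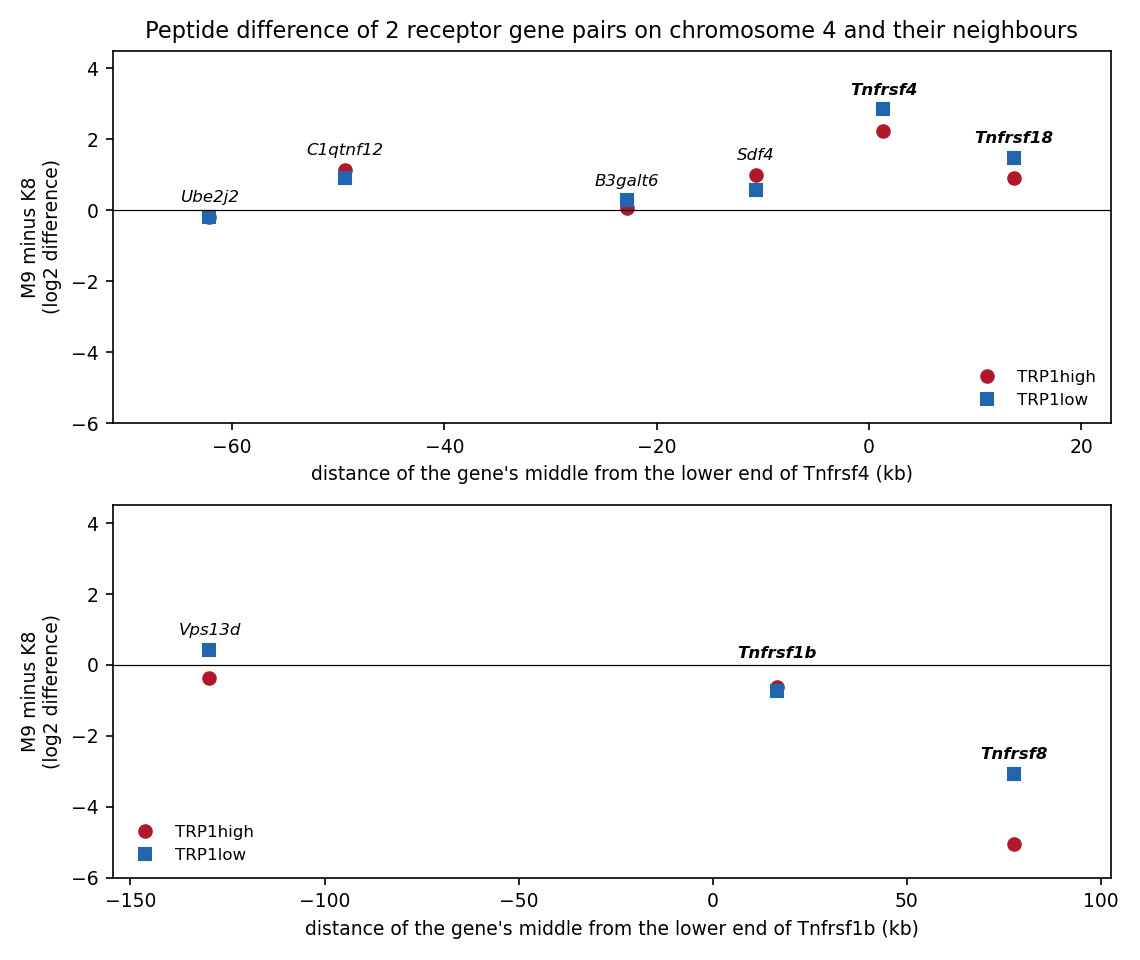
Difference between M9 and K8 in log2 for genes around Tnfrsf4 and Tnfrsf18 and around Tnfrsf8 and Tnfrsf1b, placed by distance along chromosome 4 in kilobases, for TRP1high and TRP1low. Tnfrsf4 and Tnfrsf8 stand farthest from 0, while Ube2j2 and B3galt6 lie near it.

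For each member the genes with the most similar pattern were sought among 10046 others whose mean reached 100 normalized counts, by the Euclidean distance between centred log2 levels over the 4 libraries. Closest to Tnfrsf4 were Rgs1 (distance 0.375), Tigit (0.412) and Olfr1310 (0.524), and 2 genes lay within 0.5. Closest to Tnfrsf8 were Ctla2a (0.837), Cxcr3 (1.13) and Hemgn (1.59), and 0 genes lay within 0.5. Rgs1 limits G protein signalling, Tigit is an inhibitory receptor and Cxcr3 is a chemokine receptor of effector T cells. Closest to Tnfrsf9 were Zeb1 (0.203), Stard10 (0.253) and Natd1 (0.284), and closest to Tnfrsf18 were Vat1 (0.191), Lars2 (0.208) and Tacc2 (0.230). They had 27 and 84 genes within 0.5. Tnfrsf1b (Cog2, Foxo1 and Rasgrp1, at 0.0891 to 0.0998) had 1051 such genes, and Cd27 (Limd2, Abhd2 and Gm20545, at 0.0184 to 0.0384) had 4527, or 45.1% of all. Within the 6 genes, Tnfrsf1b and Cd27 were 0.602 apart, Tnfrsf9 and Tnfrsf18 0.796, and Tnfrsf4 and Tnfrsf8 6.73. With 4 libraries the distances are a description and carry no test.

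Markers of other cells were read beside these results. The 8 CD8 T cell markers summed to between 101228 and 134542 normalized counts, and with M9 0 of 8 were called in either T cell receptor. Of 14 B cell markers, M9 gave 13 lower and 0 higher for TRP1high (9.87% of all genes in either direction). For TRP1low it gave 6 of them lower and 2 higher (15.1% of all genes). Their summed counts were 3772 and 2801 with K8 and 1481 and 969 with M9, in TRP1high and TRP1low. Among the markers at 0 in TRP1high with M9 were Pax5 and Cr2, and Cr2 was at 0 in TRP1low with M9. Other values went the opposite way. In the order given above, Pax5 had 536, 0, 7 and 17 estimated reads. Ebf1, called higher with M9 in TRP1low, had 32, 1, 2 and 23. The level of H2-Ab1 was 8.75 and 9.40 in TRP1high, with K8 and M9. The sum of the B cell list was thus lower with M9, in the direction of Tnfrsf8 and Tnfrsf1b, though not every marker was. The part of B cells in the differences of Tnfrsf8 and Tnfrsf1b was not tested.

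Of 6 CD4 and regulatory T cell markers, M9 gave 0 higher and 3 lower for TRP1high (9.87% of all genes in either direction). For TRP1low it gave 2 of them higher and 0 lower (15.1% of all genes). Their sums were 1223, 626, 142 and 296 normalized counts. Foxp3, the defining factor of regulatory T cells, had 22 and 5 estimated reads in TRP1high and 1 and 4 in TRP1low, with K8 and M9. Cd4 had 2, 0, 19 and 17 estimated reads, and Cd40lg had 6, 9, 12 and 17. Zbtb7b, a factor of the CD4 lineage, was highest in TRP1high with M9, at 54, 106, 2 and 92 estimated reads. Lrrc32 (759, 373, 22 and 93 estimated reads) and Ikzf4 (381, 140, 49 and 59) were higher in TRP1high than in TRP1low with both peptides. The members of the list thus did not share 1 pattern. Between the T cell receptors, TRP1high had 4 higher and 2 lower with K8, and 2 higher and 1 lower with M9. In this comparison 18.9% of all genes were called with K8 and 12.9% with M9.

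Of 7 NK or gamma delta T cell markers measured, 5 were lower in TRP1high and 1 in TRP1low with M9. Of all genes, 4.73% and 7.43% were lower. The sums of these markers were 5716, 1659, 3494 and 2764. Relative to TRP1low, TRP1high had 3 higher and 0 lower with K8 (18.9% of all genes), and 3 higher and 1 lower with M9 (12.9%). The 3 higher ones with both peptides were the gamma chain constant genes Tcrg-C1 (910, 106, 7 and 2 estimated reads), Tcrg-C2 (513, 66, 11 and 3) and Tcrg-C4 (1449, 229, 3 and 2), which are similar in sequence, so their separate values are uncertain. These 3 genes were thus highest in TRP1high with K8, lower in TRP1high with M9, and at 11 estimated reads or fewer in TRP1low. Trdc, the delta chain constant gene, had 677, 469, 862 and 758 estimated reads.

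Of 8 myeloid or dendritic cell markers measured, 1 was lower in TRP1high and 6 in TRP1low with M9, with sums of 31.1, 17.2, 232 and 46.4. The shares of all genes lower with M9 were 4.73% and 7.43%. In TRP1high, relative to TRP1low, 0 were higher and 7 lower with K8, and 0 higher and 2 lower with M9. The same comparison of the B cell list gave 7 higher and 1 lower with K8, and 2 higher and 9 lower with M9, and of the CD8 T cell list 0 in either direction with K8, and 1 higher with M9. Among all genes, TRP1high against TRP1low called 10.6% higher and 8.35% lower with K8, and 7.37% and 5.58% with M9. The part of these cells in the levels of the 6 receptors was not tested.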

How the data were processed

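Total RNA of sorted T cells was sequenced in 4 libraries, 1 per group, and groups were taken from the sample titles. The authors deposited log2 normalized counts per gene symbol, per the file headers. From the values, the scale was read as log2(count divided by a size factor, plus 1). The submitters' processing notes name Salmon 0.8.2, DESeq2 1.20.0 and mm10. Their settings, any filter and the transcript annotation were not given in the sources used here. All members and gene lists were chosen with earlier results of these data known, and Cd40lg is in 2 lists.

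The step between low values gave the worth of 1 read, 0.998, 0.989, 1.37 and 1.05 normalized counts (order: TRP1high K8, TRP1high M9, TRP1low K8, TRP1low M9). Dividing by it gave 40.5, 41.5, 29.6 and 40.3 M estimated reads. Of the values from 0 to 50, between 56.2% and 56.4% lay within 0.01 of a whole read, so no count model was run. Exact 95% intervals used estimated reads rounded to whole numbers. Reads carry no molecular identifiers, so intervals cover counting error only. Of the 16338 gene names, 99.1% matched GENCODE M21, 20 were date-like and 1 was repeated.

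Single comparisons are log2 differences between 2 libraries. Counted were genes that differed by 2-fold or more on the log2(value + 1) scale and reached 10 normalized counts in either library, and printed folds leave out the added 1. Over all libraries limma 3.58.1 (R 4.3.3) fitted T cell receptor and peptide to genes whose mean reached 1, without trend, with Benjamini-Hochberg adjustment at 0.05. The calls and the read step were tested on simulated data. Named were all members, the 3 nearest genes of each, the cognate ligands, Traf1, Traf2, Traf3 and Traf5. From each list, genes called in both T cell receptors came next (up to 5 per direction), then up to 3 per single comparison by size, of which some are printed. Camta1, Vamp1 and the other neighbours were named by position, and Cd40, Ltbr, Pax5, Cr2 and the printed CD4, regulatory and gamma delta T cell markers for their low values or defining role, after their values were seen. Ebf1 and H2-Ab1 were named, also after their values were seen, as B cell markers that did not fall with M9 in both T cell receptors. The value of 1 B cell marker is not reported here. Alternatives changed the scaling, the added value, the minimum, the fold and the limma settings.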

Additional observations from a re-analysis of the deposited data

Results flagged for a closer look

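For these genes the difference had 1 sign in 1 pair of libraries and the opposite sign in the other. Since each group holds 1 library, none of the differences between the pairs was tested, and some of the signs lie within counting error. The values are log2 differences, and the first number is the difference between the pairs.

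For TRP1high against TRP1low, Tnfrsf8 gave -1.96 (M9 minus K8), from 1.46 with K8 and -0.50 with M9. Tnfrsf1b gave 0.12, from -0.09 with K8 and 0.03 with M9. Cd27 gave 0.44, from -0.40 with K8 and 0.04 with M9. For all 3 genes the value with M9 lay within counting error (intervals of the ratio 0.449 to 1.09, 0.961 to 1.08 and 0.977 to 1.08). For M9 against K8, Cd27 also gave 0.44 (TRP1high minus TRP1low), from 0.11 in TRP1high and -0.33 in TRP1low.

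Among the ligands, for M9 against K8, Tnfsf4 gave 3.15, from 0.48 in TRP1high and -2.67 in TRP1low. Tnfsf8 gave 1.07, from 0.51 and -0.57. Cd70 gave 4.95, from 2.57 and -2.38, on at most 31 estimated reads in any library. Lta gave -2.94, from -0.65 and 2.30. Among the adaptors, Traf1 gave 1.67, from 0.70 and -0.97 (intervals of the ratio 1.53 to 1.73 and 0.484 to 0.539). Traf2 gave 0.15, from 0.02 and -0.13. For Traf2 both differences lay within counting error (intervals of the ratio 0.938 to 1.098 and 0.835 to 1.001). TRP1low with K8 held the highest Tnfsf4, Cd70 and Traf1 and the lowest Lta of the 4 libraries, and it also had the fewest estimated reads (29.6 M).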

How the results depend on the processing

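Each group held 1 library, so no replicate could be left out. The labels give no replicate numbers by which libraries could be paired, and the additive limma model already takes the peptide term within each T cell receptor. The 30 differences of the members, which include the difference of differences, kept their sign under both other scalings and under log2(value + 10). The largest moves were 0.064, 0.062 and 0.294. Under the other scalings 7 values fell outside their counting interval. For example, Tnfrsf4 in TRP1high against TRP1low with M9 went from 1.31 to 1.37 with the median ratio set to 0. The scalings moved the median of all genes by under 0.1. With a 1.5-fold threshold 5 of 6 members were called with M9 in TRP1high and 5 in TRP1low, in place of 3 and 3. Of the 16102 genes tested, 3159 and 4347 were called at that threshold, in place of 1589 and 2431. Genes called among all tested, in the order TRP1high M9 against K8, TRP1low M9 against K8, TRP1high against TRP1low with K8, the same with M9, and the difference of differences, were 1589, 2431, 3046, 2085 and 3019. They were 3159, 4347, 5351, 4168 and 5005 at 1.5-fold, and 573, 1036, 1561, 901 and 1217 with at least 100 normalized counts. With no minimum they were 2762 and 3930 for the peptide and 3238 for the T cell receptor with M9, and with log2(value + 10) 1059 for the peptide in TRP1high. In limma 0 genes passed for either term. With trend 5 genes passed for the peptide and 260 for the T cell receptor, with 1 member (Tnfrsf4) in each. For the T cell receptor 32 passed with log2(value + 10) and 40 with a mean of at least 100. The T cell receptor term of Tnfrsf1b, -0.03, turned to 0.018 with the median ratio set to 0. The cause of these changes was not tested, beyond the number of genes each threshold admits. Depth limits Tnfrsf8 with M9 and Cd70.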
